A study of Mus musculus with 192 samples.

Results

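HTT-10150, a small interfering RNA (siRNA) directed against full-length HTT, was compared with a non-targeting control siRNA (NTC) in the hippocampus of wild-type (WT) mice. All 16 libraries of these 2 groups were taken from a series of 192, by the group given in the labels, and 15 of them were used: 7 from HTT-10150 mice and 8 from NTC mice. Both groups were treated at 2 and at 6 months of age and collected at 10 months, a regimen labelled 2.6[8]10, with 4 mice of each sex and 1 library per mouse. They carry no knock-in allele, so the gene lowered here is the normal mouse Htt. Other mice of the regimen serve as references: WT mice left untreated, WT mice given HTT-634 and HTT-486 together (labelled HTT-634.486, against the short transcript HTT1a), and zQ175 mice, knock-in animals that model Huntington's disease, under the same 4 treatments, 8 mice in each group. The sources used here do not give the dose, the route or the sequences of the siRNAs. A p-value here measures the spread between mice of one hippocampal dissection each.

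Huntingtin is a large scaffold protein that links vesicles to the motors of axonal transport and takes part in endosome traffic, transcription and autophagy. An siRNA guides the Argonaute-containing silencing complex to a matching transcript, which is then cut, so the level of the target RNA is the direct readout of the treatment. Microglia, the resident macrophages of the brain, carry a characteristic set of surface receptors and complement genes at rest and a different set when activated, and they are followed here beside neuronal and other glial genes.

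The 7 HTT-10150 libraries held 13.7 M to 21.1 M counts each (M, mega-counts), with 14.9 M as the median, and the 8 NTC libraries 13.1 M to 19.9 M, with 16.9 M as the median. The library left out, HTT-10150 female 1, held 492.8 CPM (counts per M counts) of Adora2a and 272 CPM of Drd1, the adenosine and dopamine receptors that mark striatal neurons, which is 280 and 69.9 times the regimen's median. No other library of the 2 groups passed 5 times the median for both genes. NTC female 2 was labelled female but had 0.687 CPM of Xist and 0.305 CPM of the Y-linked Ddx3y. Choroid plexus and ependymal genes summed to 16869 CPM in NTC female 3, 7561 CPM in HTT-10150 male 4 and 4226 CPM in HTT-10150 female 4, and to at most 714 CPM in the other 12 mice. Hippocampal genes were present throughout, with sums of 1003 to 1350 CPM for dentate granule cell genes and 549.99 to 736 CPM for CA1 genes. Across the regimen, 13 of 63 libraries had more than 10 times the median of that sum.

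Htt, the target (chr5:34761740-34912534 in GRCm38, by GENCODE), was at 48.6, 63.9, 44.01, 53.5, 89.9, 73.7 and 73.8 CPM in the 7 HTT-10150 mice. NTC mice ranged from 141 to 179 CPM around a median of 160 CPM. Each treated mouse lay below every NTC mouse, and female 4 held the least Htt and male 2 the most. Mean levels were 63.9 ± 16.4 CPM (SD, n = 7) and 161.2 ± 11.2 CPM (SD, n = 8), a decrease of 60.3% (exact two-sided permutation test, p = 0.000311, the smallest that 6435 splits allow, 0.000389 after Benjamini-Hochberg adjustment over 5 comparisons of Htt). The fitted log2 change was -1.34 ± 0.11 (SE, edgeR adjusted p = 6.78e-13). Against untreated WT mice, at 183.7 ± 12.5 CPM (SD, n = 8), the decrease came to 65.2%, and against HTT-634.486 mice, at 173 ± 11.9 CPM (SD, n = 8), to 63.04%. NTC mice themselves lay 12.3% below untreated mice (exact permutation test, p = 0.00264). The fit across all genes did not call this difference (-0.19 ± 0.10, edgeR unadjusted p = 0.07355, adjusted p = 0.415). That fit takes the spread of Htt from all 8 groups of the regimen, and the exact test uses the compared groups alone. In zQ175 mice, HTT-10150 left 75.6 ± 27.7 CPM against 142.4 ± 13.04 CPM under NTC, a decrease of 46.9% (exact permutation test, p = 0.000155, n = 8 per group). Levels under HTT-10150 ran from 55.2 to 126.2 CPM in zQ175 mice, with a median of 64.2 CPM, beside a median of 63.9 CPM in WT mice. The Htt change of WT minus that of zQ175 mice was -0.42 ± 0.15 and was not called (edgeR, unadjusted p = 0.00864, adjusted p = 1).

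**Figure D1:**
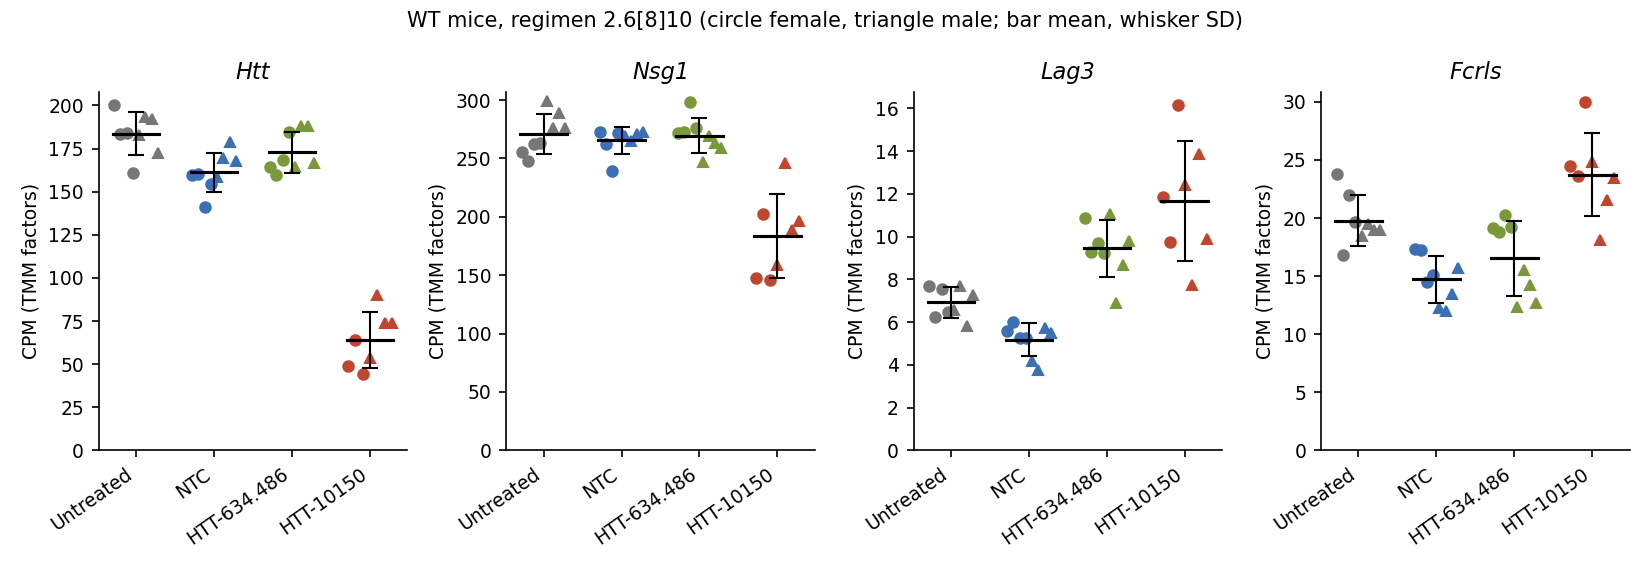
Levels of Htt, Nsg1, Lag3 and Fcrls in CPM with TMM factors (y axis) in each WT mouse of the 4 treatments (x axis), circles for females and triangles for males, with the mean as a bar and the SD as a whisker. HTT-10150 mice hold 44.01 to 89.9 CPM of Htt and every NTC mouse at least 141 CPM; Nsg1 is lower and Lag3 and Fcrls are higher under HTT-10150 than under NTC.

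Of 15904 genes tested, 264 differed between HTT-10150 and NTC mice at an adjusted p under 0.05 (1.66% of genes; edgeR quasi-likelihood test, Benjamini-Hochberg), and these are referred to as called. HTT-10150 raised 153 (0.962%) and lowered 111 (0.698%). DESeq2 split its calls differently, 155 raised and 170 lowered. Most changes were small: the median size over the called genes was 0.24 on the log2 scale, and 11 genes changed at least 2-fold. The spread was estimated over all 8 groups of the regimen, and a fit of the 2 groups alone called 85 genes, of which 79 were among the 264. A block of the number in the library names, whose meaning is not stated, called 746 genes, 251 of the 264 among them. Leaving out HTT-10150 male 3 left 1.06% of genes called and leaving out NTC female 2 left 1.09%.

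Comparisons within WT mice share animals with one another, so their values are set side by side and not counted as separate support. HTT-10150 against untreated mice called 259 genes (1.63%), HTT-10150 against HTT-634.486 called 62 (0.39%), NTC against untreated called 269 (1.69%) and HTT-634.486 against NTC called 329 (2.07%). NTC mice thus differed from untreated ones at 269 genes, and changes against untreated mice are set beside those against NTC.

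The first group of genes was lower than in NTC and also lower than in untreated mice. Nsg1, a small membrane protein of neuronal endosomes that takes part in receptor recycling, lies on the same chromosome (chr5:38137192-38159907). Its level was 147.3, 202.7, 145.6, 158.4, 246.1, 189.003 and 196.5 CPM in the HTT-10150 mice, and ran from 239 to 273 CPM with a median of 270 CPM in NTC mice. HTT-10150 male 2, which also kept the most Htt, was the only treated mouse inside the NTC range. The log2 change was -0.54 ± 0.07 (edgeR adjusted p = 7.55e-07), beside -0.57 ± 0.07 against untreated and -0.56 ± 0.07 against HTT-634.486 mice, while NTC and untreated mice differed by -0.03 ± 0.07. In zQ175 mice, which share no animal with the WT groups, Nsg1 changed by -0.44 ± 0.07 against NTC (adjusted p = 1.94e-05) and by -0.42 ± 0.07 against untreated mice (adjusted p = 0.000156).

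Stk11ip, a binding partner of the kinase LKB1, held 18.4 to 24.8 CPM in HTT-10150 mice (median 19.95) and 23.8 to 26.8 CPM in NTC mice (median 25.0). All treated mice but 1 lay below every NTC mouse, and the log2 change was -0.31 ± 0.05 against NTC (edgeR adjusted p = 0.000269) and -0.33 ± 0.05 against untreated mice. Vapb, an endoplasmic reticulum membrane protein that tethers the organelle to other membranes, changed by -0.19 ± 0.03 against NTC and -0.24 ± 0.03 against untreated mice. Imp4, a component of the ribosomal RNA processing complex, changed by -0.29 ± 0.05 and -0.28 ± 0.05, and Wdr1, a partner of cofilin in actin filament disassembly, by -0.21 ± 0.04 and -0.16 ± 0.04. For these 4 genes NTC and untreated mice differed by 0.0513 (Wdr1) or less, and each was also called against NTC in zQ175 mice, with log2 changes of -0.30 for Stk11ip, -0.14 for Vapb, -0.19 for Imp4 and -0.16 for Wdr1. Wdr1 was not called in zQ175 mice against untreated ones (-0.11 ± 0.04, adjusted p = 0.0747).

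In WT mice Trak2, Enpp6, Col6a5 and Nras were lower than under NTC, not called against untreated mice, and called higher in NTC than in untreated mice. Trak2, an adaptor that couples mitochondria to kinesin motors, ran from 182 to 199 CPM in HTT-10150 mice (median 197) and from 236 to 286 CPM in NTC mice (median 260). These ranges did not overlap, and the log2 change was -0.41 ± 0.04 (edgeR adjusted p = 1.75e-09). Untreated mice held 213 ± 13.3 CPM (SD, n = 8), so that the change against untreated was -0.14 ± 0.04 (adjusted p = 0.0928) and NTC lay 0.27 ± 0.04 above untreated (adjusted p = 6.74e-05). Trak2 was called lower than in HTT-634.486 WT mice (-0.19 ± 0.04, edgeR adjusted p = 0.0318). In zQ175 mice it was called lower than untreated (-0.22 ± 0.04, edgeR adjusted p = 0.0019), where Enpp6, Col6a5 and Nras were not called. Enpp6, a choline phosphodiesterase of newly forming oligodendrocytes, changed by -0.57 ± 0.12 against NTC and by 0.15 ± 0.12 against untreated mice. Col6a5, a collagen VI chain, changed by -0.87 ± 0.17 and -0.11 ± 0.17, and Nras, a small GTPase of growth factor signalling, by -0.20 ± 0.03 and -0.04 ± 0.03. Prss23, Ptgs2 and Slc17a8 lay below NTC and had negative changes against untreated mice that were not called. Prss23, a secreted serine protease, fell by 0.50 ± 0.08 against NTC and changed by -0.21 ± 0.08 against untreated mice (edgeR adjusted p = 0.169), and NTC was higher than untreated (0.29 ± 0.07, adjusted p = 0.0253). Ptgs2, the inducible cyclooxygenase, fell by 0.53 ± 0.10 against NTC and changed by -0.27 ± 0.10 against untreated mice (adjusted p = 0.18), where NTC and untreated differed by 0.26 ± 0.10 (adjusted p = 0.168). Slc17a8, the vesicular glutamate transporter VGLUT3, fell by 0.51 ± 0.13 against NTC (adjusted p = 0.0308). Its change against untreated mice was -0.44 ± 0.13, not called (adjusted p = 0.0812), and NTC differed from untreated by 0.07 ± 0.13. In zQ175 mice Slc17a8 was called lower than untreated (-0.69 ± 0.13, edgeR adjusted p = 0.00101), while Prss23 and Ptgs2 were not called there. Against NTC in zQ175 mice Trak2, Nras and Slc17a8 were called lower. Enpp6 (-0.32 ± 0.11), Col6a5 (-0.30 ± 0.16), Prss23 (-0.23 ± 0.07) and Ptgs2 (-0.23 ± 0.10) were negative in that comparison and not called. With the striatal library included the change of Slc17a8 against NTC in WT mice turned to 0.14 (adjusted p = 0.821).

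**Figure D2:**
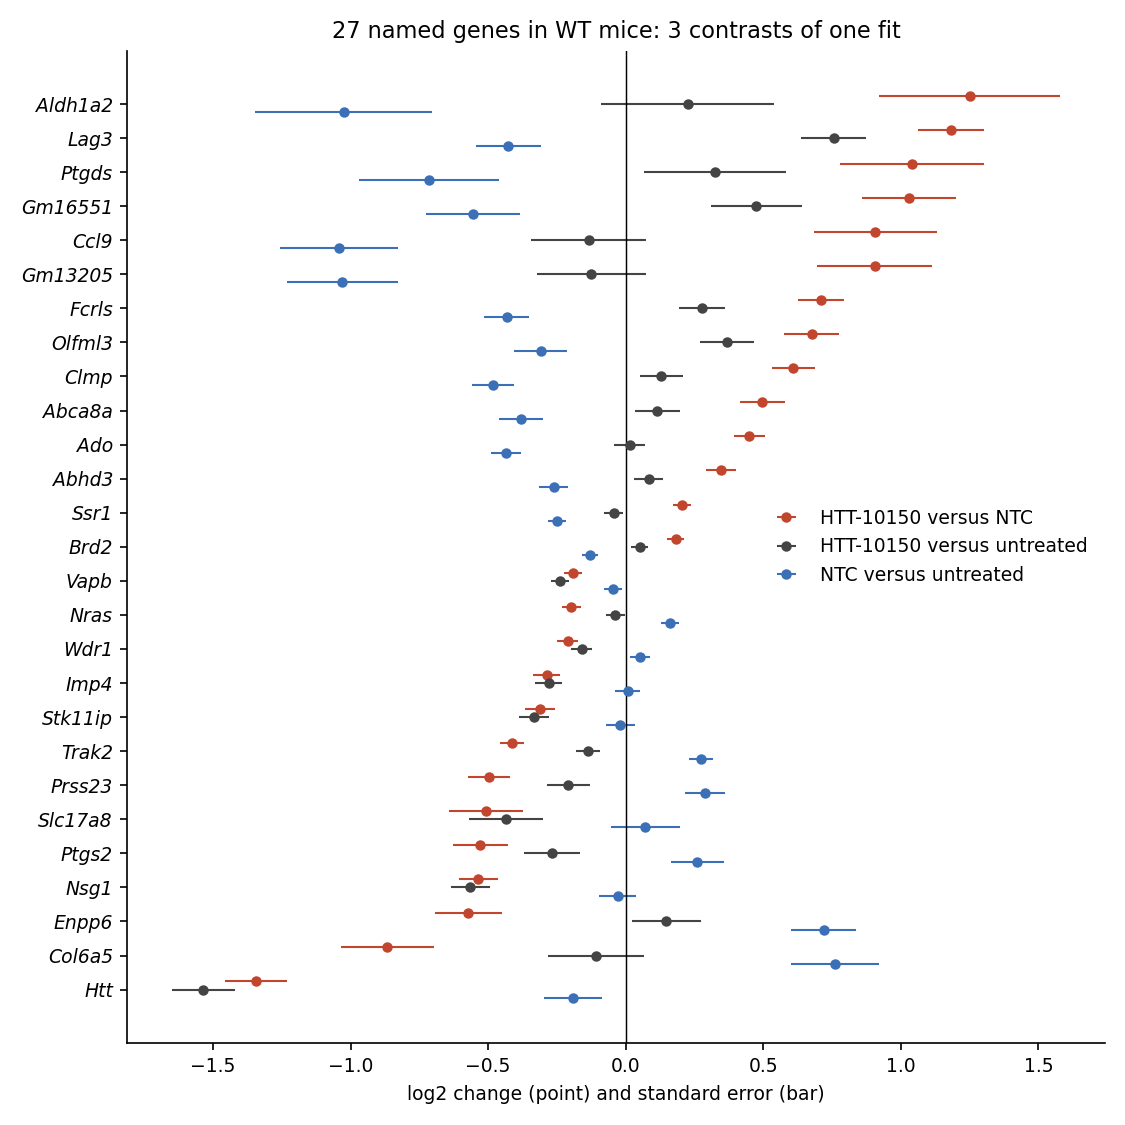
Log2 changes (x axis, bars are standard errors) of 27 genes named by rule (y axis) in WT mice for HTT-10150 versus NTC, HTT-10150 versus untreated and NTC versus untreated, which share mice. Htt, Nsg1, Stk11ip, Imp4 and Vapb lie at about the same place against NTC and against untreated, whereas Ado, Ssr1, Gm13205 and Col6a5 lie near 0 against untreated and at the opposite side for NTC versus untreated.

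Among raised genes, Lag3 had the smallest adjusted p. It encodes an inhibitory receptor best known from T cells (chr6:124904361-124911705). Its level was 11.9, 9.77, 16.1, 12.4, 7.72, 13.9 and 9.87 CPM in HTT-10150 mice and 3.78 to 6.00 CPM in NTC mice (median 5.38). All treated mice lay above every NTC mouse, and the lowest of them, male 2, was again the one with the most Htt. The log2 change was 1.18 ± 0.12 (edgeR adjusted p = 4.62e-10), beside 0.76 ± 0.12 against untreated mice (adjusted p = 8.28e-05). HTT-634.486 also stood above NTC, by 0.87 ± 0.12 (adjusted p = 2.745e-06), and HTT-10150 above HTT-634.486 by 0.31 ± 0.12, which was not called (adjusted p = 0.323). NTC mice were 0.43 ± 0.12 below untreated (adjusted p = 0.0472). Of the list of 18 immune checkpoint and lymphocyte genes 5 passed the filter on low counts and 1, Lag3, was called (1.66% of all genes called). The 13 that were not tested include the T cell genes Cd3e, Cd3d and Cd8a and the B cell gene Ms4a1, and none of them exceeded 1.01 CPM in any mouse of the 2 groups.

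Among homeostatic microglial genes, 8 of 20 tested members rose and 0 fell, against 0.962% of all genes raised, and 19 of 20 changes were positive with a median of 0.29 (all genes: -0.0002). The list was chosen with earlier results of these data known. Its members share a cell type and are not separate observations, so the counts are given as a description. In bulk tissue, more microglia and more RNA per microglial cell cannot be told apart. Fcrls, an Fc receptor-like protein of microglia, ran from 18.1 to 29.95 CPM in HTT-10150 mice (median 23.6) and from 12.005 to 17.4 CPM in NTC mice (median 14.8), with no overlap. Its log2 change was 0.71 ± 0.08 (edgeR adjusted p = 3.20e-08). Olfml3, a secreted glycoprotein typical of microglia, ran from 14.96 to 26.3 CPM against 10.6 to 17.2 CPM, where 6 of 7 treated mice lay above every NTC mouse, and changed by 0.68 ± 0.10 (adjusted p = 9.50e-06).

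The fractalkine receptor Cx3cr1 rose by 0.30 ± 0.05, the ADP receptor P2ry12 by 0.29 ± 0.06, the selectin ligand Selplg by 0.46 ± 0.09 and the lysophosphatidylserine receptor Gpr34 by 0.34 ± 0.09. C1qa and C1qb, chains of the complement starter C1q, rose by 0.54 ± 0.12 and 0.43 ± 0.12. C1qc (0.36 ± 0.11), Tyrobp (0.44 ± 0.13) and Trem2 (0.33 ± 0.11) had positive changes that were not called, and Csf1r, the receptor that keeps microglia alive, was at 0.01 ± 0.06. The summed level of the list was 597 to 852 CPM in HTT-10150 mice and 515 to 669 CPM in NTC mice, so that the groups overlapped through male 2 of the treated group. Without the libraries of high choroid plexus signal, 4 of 20 members were called with the median at 0.29. Other settings called 4 to 12 of the 20.

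**Figure D3:**
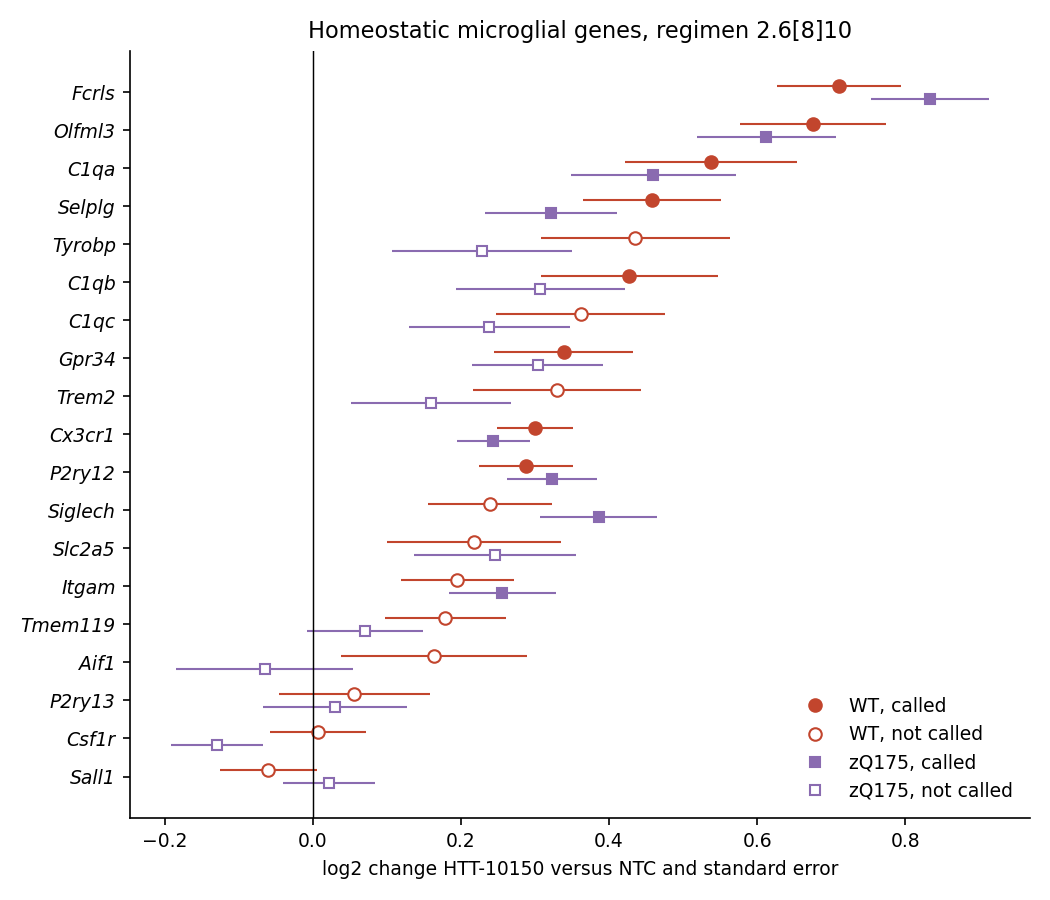
Log2 change of HTT-10150 versus NTC with its standard error (x axis) for 19 homeostatic microglial genes (y axis), circles for WT and squares for zQ175 mice, filled where called. In WT mice 8 genes are called and 18 of 19 points lie above 0; Fcrls and Olfml3 have the largest changes, and Csf1r and Sall1 lie near 0.

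Against untreated mice the microglial genes divided. HTT-10150 against untreated raised 9 of the 20 homeostatic genes (1.63% of all genes called), with a median of 0.27. NTC against untreated lowered 4 of the 20 and raised 0 (1.69% of all genes called), with a median of 0.05. HTT-10150 against HTT-634.486 raised 3 of the 20 (0.39% of all genes called), with a median of 0.16. C1qa was higher by 0.74 ± 0.12, C1qb by 0.66 ± 0.12 and Cx3cr1 by 0.26 ± 0.05 than in untreated mice, and all 3 were called, as were P2ry12 (0.24 ± 0.06), Olfml3 (0.37 ± 0.10), C1qc (0.69 ± 0.12), Trem2 (0.63 ± 0.11) and Tyrobp (0.64 ± 0.13). Selplg and Gpr34 lay within 0.05 of the untreated level, and Fcrls was 0.28 ± 0.08 above it (edgeR adjusted p = 0.0652), while NTC lay 0.43 ± 0.08 below untreated for Fcrls (adjusted p = 0.00148) and 0.43 ± 0.09 below for Selplg (adjusted p = 0.00493). Against HTT-634.486 mice, Fcrls was higher by 0.55 ± 0.08 (adjusted p = 4.42e-05) and Olfml3 by 0.57 ± 0.10 (adjusted p = 0.000468), whereas C1qa differed by 0.09 ± 0.12. Of the genes of activated microglia 1 of 17 was called against NTC (1.66% of all genes called), with a median of 0.08. That gene, Cst7, encodes the protease inhibitor cystatin F and was at 0.62 to 3.93 CPM in HTT-10150 mice (median 2.01) and 0.41 to 0.87 CPM in NTC mice (median 0.60), from 13 to 64 and 7 to 15 reads. It reached the 0.602 CPM that the filter on low counts asks for in all 7 HTT-10150 mice and in 4 of 8 NTC mice. Its log2 change was 1.72 ± 0.36 (adjusted p = 0.0042), and 1.37 (adjusted p = 0.0766) without the libraries of high choroid plexus signal. Against untreated mice 6 of the 17 activated genes were called (1.63% of all genes), with a median of 0.59, among them Cst7 at 3.21 ± 0.43, Cd68 at 0.91 ± 0.15 and Lyz2 at 1.60 ± 0.27. Untreated WT mice held only 0.07 to 0.41 CPM of Cst7, and 0 of 8 reached the 0.602 CPM of the filter, so the size of that change is uncertain. NTC against untreated mice itself raised 5 of the 17 (1.69% of all genes), with a median of 0.54, Cd68 at 0.58 ± 0.15 among them, while Cst7, at 1.49 ± 0.48, was not called (adjusted p = 0.0918). Against HTT-634.486 mice the median of the 17 was -0.0037.

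Promoters of the microglial genes that rose together are shown to set the leading members side by side. Of 10 genes looked up (the 8 above with Lag3 and Cst7), 6 have an entry in the RefSeq promoter table (build GRCm38.p6, 250 bases before to 50 after the start, 1 entry each). The PU box, GAGGAA, the core bound by the myeloid factor PU.1, was searched on both strands (TTCCTC on the other); it occurs in 28.3% of the 32851 promoters of the table and in 2 of these 6. Capitals mark the match in the following promoters, written 5′ to 3′, of Fcrls (chr3:87263475-87263774, minus strand) and C1qb (chr4:136886151-136886450, minus strand), and Olfml3 (chr3:103737952-103738251, minus strand) has none in this window.
Fcrls: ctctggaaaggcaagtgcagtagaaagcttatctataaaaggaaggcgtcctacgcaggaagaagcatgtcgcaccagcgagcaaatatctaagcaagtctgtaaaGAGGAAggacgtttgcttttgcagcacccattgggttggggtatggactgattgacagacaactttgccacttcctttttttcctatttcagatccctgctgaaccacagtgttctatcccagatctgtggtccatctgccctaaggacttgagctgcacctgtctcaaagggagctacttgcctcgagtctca
C1qb: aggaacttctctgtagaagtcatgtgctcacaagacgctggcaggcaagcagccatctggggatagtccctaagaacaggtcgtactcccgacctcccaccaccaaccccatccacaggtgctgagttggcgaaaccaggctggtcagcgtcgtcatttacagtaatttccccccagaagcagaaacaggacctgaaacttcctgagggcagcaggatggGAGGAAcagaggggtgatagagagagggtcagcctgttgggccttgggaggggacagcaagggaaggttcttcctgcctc
Olfml3: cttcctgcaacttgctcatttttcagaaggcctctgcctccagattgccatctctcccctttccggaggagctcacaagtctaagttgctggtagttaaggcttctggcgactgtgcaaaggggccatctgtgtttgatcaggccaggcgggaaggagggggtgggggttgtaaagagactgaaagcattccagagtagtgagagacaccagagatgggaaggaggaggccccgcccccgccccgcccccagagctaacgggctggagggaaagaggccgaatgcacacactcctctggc

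Ado, Ssr1, Brd2, Clmp, Abca8a and Abhd3 were raised against NTC and were not called against untreated mice. Ado, a thiol dioxygenase, was at 56.7 to 63.4 CPM in HTT-10150 mice (median 58.7) and 39.4 to 53.8 CPM in NTC mice (median 42.6), with no overlap and a log2 change of 0.45 ± 0.06 (edgeR adjusted p = 2.62e-07). Untreated mice held 59.1 ± 2.39 CPM (SD, n = 8), and the change against them was 0.02 ± 0.06. Ssr1, a subunit of the translocon-associated complex, rose by 0.21 ± 0.03 against NTC and differed by -0.04 ± 0.03 from untreated. Brd2, a reader of acetylated histones, rose by 0.18 ± 0.03 and differed by 0.05 ± 0.03. Clmp, an adhesion molecule of the CTX family, rose by 0.61 ± 0.08 and differed by 0.13 ± 0.08. Abca8a, a lipid transporter, rose by 0.50 ± 0.08, and Abhd3, a phospholipase, by 0.35 ± 0.05, with 0.12 ± 0.08 and 0.08 ± 0.05 against untreated mice. For these 6 genes NTC was called lower than untreated, and all 6 were called raised against NTC in zQ175 mice.

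The largest raised changes by size included Aldh1a2, an enzyme of retinoic acid synthesis and a marker of meningeal fibroblasts, at 1.2503 ± 0.33, and Ptgds, the prostaglandin D2 synthase of meninges and choroid plexus, at 1.04 ± 0.26. Against untreated mice these changes were 0.23 ± 0.31 and 0.32 ± 0.26, neither called. Ptgds was at 169.4 to 475.1 CPM in HTT-10150 mice (median 309) and 105.7 to 142.5 CPM in 7 NTC mice, with the remaining one, female 3, at 317 CPM. NTC female 3 is the mouse with the highest choroid plexus sum, and its fibroblast and meningeal sum was 636 CPM against 98.9 to 124.4 CPM in the other NTC mice and 100.1 to 329 CPM in HTT-10150 mice. Of the 11 fibroblast and meningeal genes tested 1, Aldh1a2, was called (1.66% of all genes called) and the median was 0.29. The part of carried-along tissue in these values was not tested. Ccl9, a chemokine at 0.66 ± 0.26 CPM under NTC (SD, n = 8), rose by 0.91 ± 0.22 and lay 0.13 ± 0.21 below untreated. The non-coding Gm16551 rose by 1.03 ± 0.17 and Gm13205, annotated antisense to Casz1, by 0.91 ± 0.21, with 0.48 ± 0.17 and -0.12 ± 0.20 against untreated mice, neither called. Against NTC in zQ175 mice Ccl9 was called raised (1.02 ± 0.22). Aldh1a2 (0.99 ± 0.31), Ptgds (0.87 ± 0.25), Gm13205 (0.62 ± 0.20) and Gm16551 (0.23 ± 0.15) were positive there and not called. Whether the counting used strand is not given in the sources used here, so Gm13205 cannot be told apart from Casz1. Htt, Nsg1, Clmp, Brd2, Prss23, Imp4, Wdr1, Enpp6, Man1a, Amigo2, Onecut1, P2ry12, Cx3cr1, Gpr34 and Gm16551 also overlap other annotated genes, by the whole span of each gene. For Htt, Cx3cr1, Onecut1 and Gm16551 an overlapping gene lies on the same strand, and for the others on the opposite strand only. How far shared positions entered these counts was not tested.

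Outside the rule for named genes, and chosen after its values were seen, Dusp27, a member of the dual-specificity phosphatase family, had a change of 2.35 ± 0.33, the largest of those called (edgeR adjusted p = 2.61e-06). It was at 0.84 to 1.72 CPM in HTT-10150 mice (12 to 28 reads) and 0.07 to 0.46 CPM in NTC mice (1 to 8 reads), with no overlap. The filter on low counts asked for 0.602 CPM in at least 7 libraries of the regimen. Dusp27 reached that level in all 7 WT and in 7 of 8 zQ175 mice given HTT-10150, in no NTC mouse and in 7 mice of the other groups. It was thus tested largely through the mice in which it was high, and its size and call are given as a description. Dusp27 was also higher than in untreated mice by 1.47 ± 0.30 (adjusted p = 0.00447) and than in HTT-634.486 mice by 1.43 ± 0.30 (adjusted p = 0.00994), and in zQ175 mice by 1.82 ± 0.30 against NTC.

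Lists of the pathways in which huntingtin works are given by their counts. With 13 to 26 genes a list, the 1.66% of all genes called amounts to less than 1 gene, so a count of 0 is near the background. Of its 25 binding partners tested 0 were called in either direction, with a median of -0.01 (edgeR, against 1.66% of all genes; the smallest adjusted p was 0.184, for Hip1 at -0.12 ± 0.04). Among 24 axonal transport motors and adaptors Trak2 was lowered and Klc2, a kinesin light chain, was raised by 0.23 ± 0.05 (2 of 24). Klc2 lay close to the untreated level, at 254.3 ± 8.02 CPM (SD, n = 7) under HTT-10150, 253.6 ± 18.5 CPM untreated and 216.5 ± 17.02 CPM under NTC (SD, n = 8 each). Of 20 genes of neuronal endosomes and recycling 1, Nsg1, was lowered, and of 19 genes of BDNF and TrkB signalling 1, Nras. No member was called among chaperones (19), autophagy and lysosome (23), proteasome (24), oxidative phosphorylation (26), sterol synthesis (23) or mismatch repair and repeat instability (13). Asns, a target of the integrated stress response, rose by 0.16 ± 0.04, the only call among 18 genes of that response, beside 0.11 ± 0.04 against untreated mice, not called.

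For genes that sense or respond to foreign RNA, the counts of 0 against NTC are again near the share over all genes. They were found for 25 interferon-stimulated genes (median 0.02), 14 innate RNA sensors (median -0.01), 17 genes of the RNA interference machinery (median -0.02) and 17 genes of antigen presentation (median -0.08). Ifit3b, at 0.53 ± 0.16, came closest among the interferon genes (edgeR adjusted p = 0.0723) and was called against untreated mice, at 0.58 ± 0.16 (adjusted p = 0.0439). In zQ175 mice the interferon list had a median of -0.18 against NTC. In the RNA interference list the Argonaute genes Ago2 (-0.18 ± 0.05) and Ago3 (-0.23 ± 0.06) were lower than in untreated WT mice, 2 of 17 (1.63% of all genes called). Against NTC in zQ175 mice Tarbp2, a partner of Dicer, rose by 0.20 ± 0.05 and the nuclear transport GTPase Ran fell by 0.08 ± 0.02. Of 14 reactive astrocyte genes 0 were called; of 16 astrocyte genes the glutamate transporter Slc1a3 was lowered by 0.19 ± 0.04, with -0.04 ± 0.04 against untreated mice. In the complement list 2 of 18 were called (1.66% of all genes), C1qa and C1qb, which were already counted among the homeostatic microglial genes. Complement C4b, at -0.10 ± 0.14 against NTC, was higher than in untreated mice by 0.61 ± 0.14 under HTT-10150 and by 0.72 ± 0.14 under NTC.

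Of 11 CA1 genes 1 was called, the mannosidase Man1a, which fell by 0.36 ± 0.08 against NTC and by 0.32 ± 0.08 against untreated mice (edgeR adjusted p = 0.0172). Of 16 CA2 and CA3 genes 2 were called: the adhesion protein Amigo2 fell by 0.45 ± 0.11 and Iyd, an iodotyrosine deiodinase, rose by 0.69 ± 0.16. Iyd was also close to the untreated level, at 4.07 ± 0.55 CPM (SD, n = 7) under HTT-10150, 4.06 ± 1.14 CPM untreated and 2.53 ± 0.68 CPM under NTC (SD, n = 8 each). The calcium sensor Hpcal4 fell by 0.25 ± 0.05, 1 of 27 calcium handling genes, and the pentraxin Nptx2 by 0.39 ± 0.11, 1 of 20 immediate early genes, whose median was -0.10. Onecut1 rose by 0.61 ± 0.16, 1 of 14 developmental transcription factors. Against untreated mice Amigo2 (-0.23 ± 0.11), Hpcal4 (-0.07 ± 0.05), Nptx2 (-0.17 ± 0.11) and Onecut1 (0.22 ± 0.16) were not called. In zQ175 mice Man1a (-0.18 ± 0.07), Amigo2 (0.02 ± 0.10), Nptx2 (0.01 ± 0.11) and Onecut1 (-0.05 ± 0.14) were not called, and none of their genotype differences was called. Dentate granule cell (16), interneuron (17), glutamate receptor (30), GABA-A receptor (14) and presynaptic (22) lists held 0 calls. The 1.66% of all genes called amounts to less than 1 gene in each of these lists, so counts of 0 or 1 are near the background. Lists of neighbouring regions had positive medians. The striatal list had a median of 0.22 with Rasd2 called (1 of 16, 0.32 ± 0.07, and 0.06 ± 0.07 against untreated mice) and sums of 435 to 577 CPM against 429 to 492.8 CPM under NTC, and the thalamic list had a median of 0.38 with 0 of 9 called and sums of 179 to 343 CPM against 155 to 246 CPM. The part of dissection in these values was not tested.

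**Figure D4:**
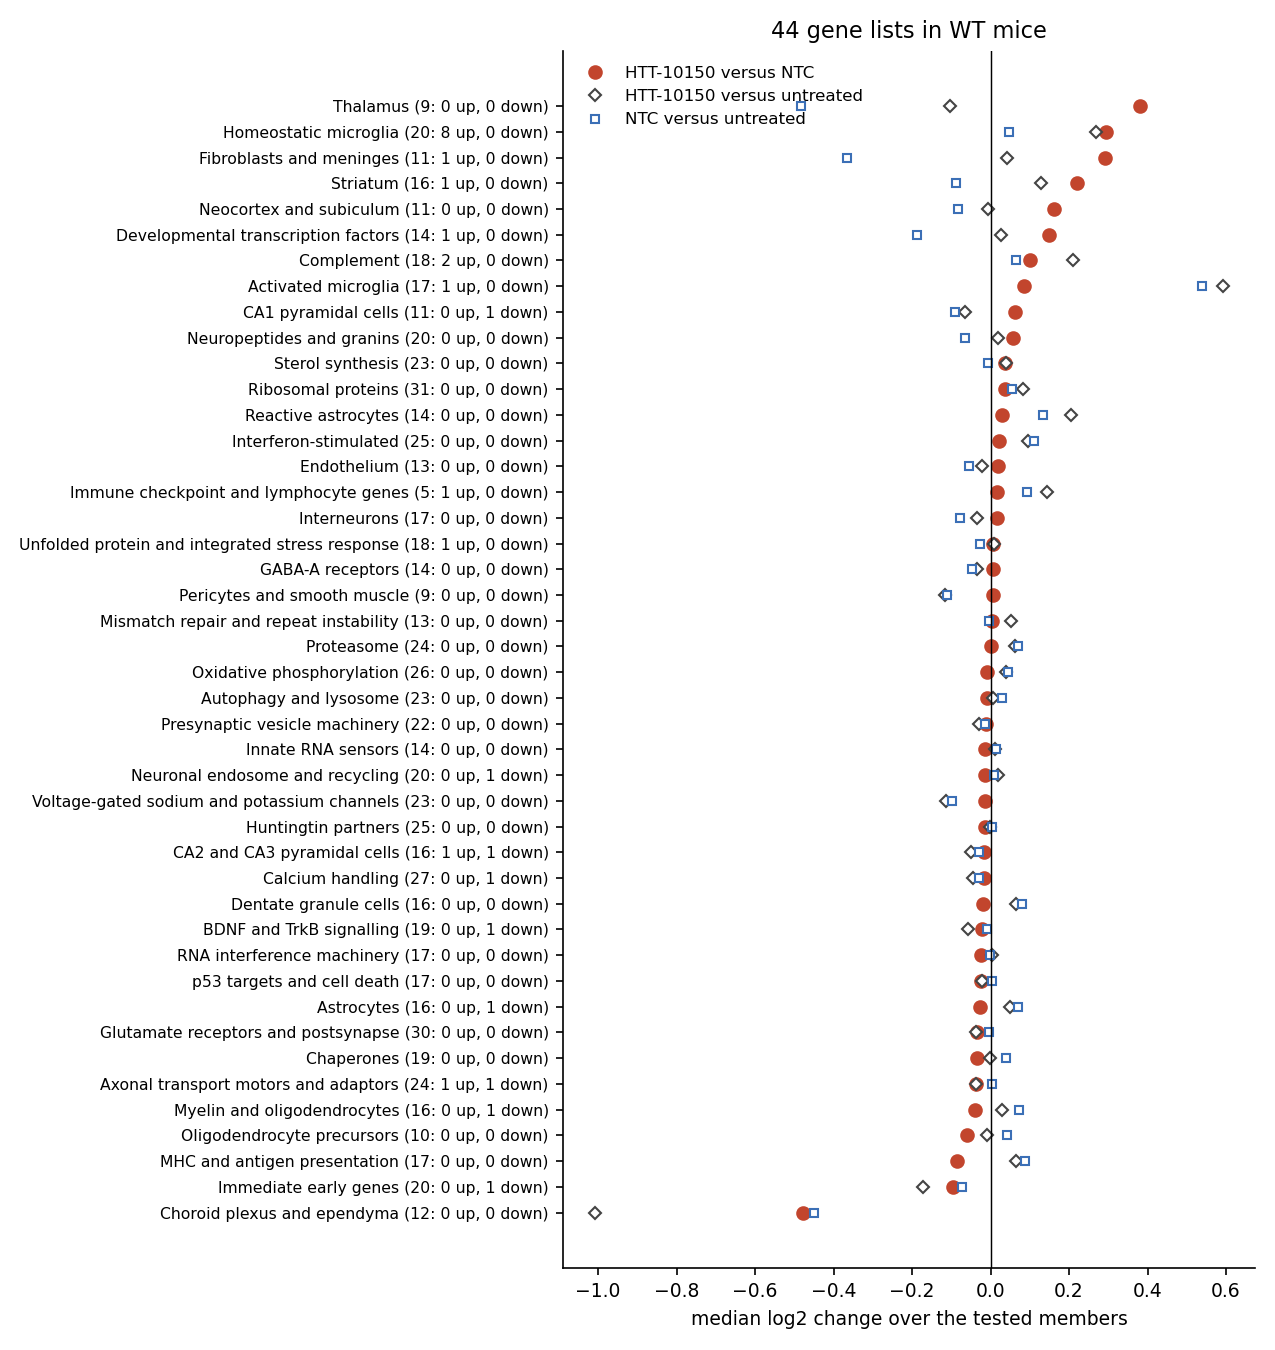
Median log2 change over the tested members (x axis) of the 44 gene lists (y axis, with the number tested and the numbers called up and down for HTT-10150 versus NTC) in WT mice; filled circles are HTT-10150 versus NTC, diamonds HTT-10150 versus untreated and squares NTC versus untreated. Homeostatic microglia, at 0.29, hold 8 of the calls, while huntingtin partners and most neuronal lists lie near 0.

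Mice that share no animal with the WT groups allow the 264 genes to be followed elsewhere. In zQ175 mice, HTT-10150 against NTC called 337 genes (2.12%), and of the 153 genes raised in WT 146 had positive changes there and 75 were called raised, with a median of 0.21 against 0.31 in WT. Of the 111 lowered genes 108 were negative and 33 were called lowered, with a median of -0.11 against -0.19. Over all genes 50.1% of changes were positive. The 264 genes were selected by their calls in WT mice, so smaller medians in other mice can come from that selection alone. Against untreated zQ175 mice, where 404 genes were called (2.54%), 98 of 153 were positive and 16 called raised, and 89 of 111 were negative and 16 called lowered. NTC against untreated zQ175 mice, with 318 calls (2%), had the raised genes on the other side, with 18 of 153 positive, 51 called lowered and 1 called raised; 82 of the 111 genes lowered in WT were positive and 10 called raised. The 3 zQ175 comparisons share mice with one another.

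**Figure D5:**
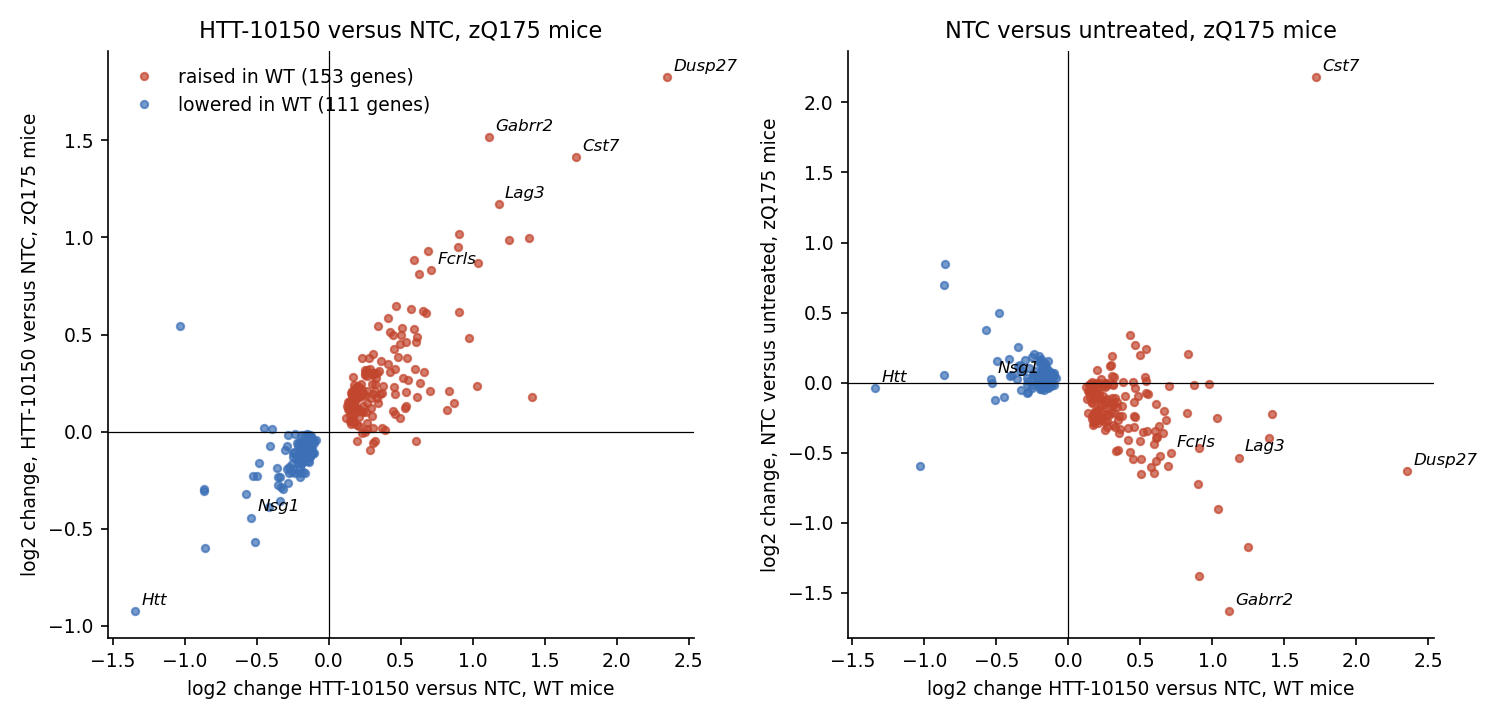
The 264 genes called in WT mice, with their log2 change for HTT-10150 versus NTC in WT (x axis) against the change in zQ175 mice (y axis) for HTT-10150 versus NTC (left) and NTC versus untreated (right), red for raised and blue for lowered in WT. On the left 146 of 153 raised genes are positive; on the right 18 of 153 are positive, with Htt and Nsg1 near 0 and Cst7 positive.

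The difference between the genotypes was itself called for 1 gene (0.00629%). Frem3, an extracellular matrix protein, went from 3.44 ± 0.93 CPM under NTC to 2.22 ± 0.50 CPM under HTT-10150 in WT mice and from 0.98 ± 0.15 to 1.76 ± 0.68 CPM in zQ175 mice (SD, n = 8, and n = 7 for WT HTT-10150). Untreated mice held 1.90 ± 0.46 CPM in WT and 1.48 ± 0.45 CPM in zQ175 (SD, n = 8 each). NTC thus lay above the untreated mean in WT and below it in zQ175 mice. The difference of the log2 changes was -1.50 ± 0.27 (edgeR adjusted p = 0.012), from -0.65 ± 0.19 in WT (adjusted p = 0.0549) and 0.85 ± 0.20 in zQ175 mice (adjusted p = 0.00857). Without the libraries of high choroid plexus signal 0 genes were called (865 at an unadjusted p under 0.05), Frem3 being at -1.52 (adjusted p = 0.232). Frem3 was also not called without zQ175 HTT-10150 male 2 (-1.31, adjusted p = 0.0861) or with a block of the number in the library names (-1.40, adjusted p = 0.07). No gene was called for the sex difference (0%; edgeR, 973 at an unadjusted p under 0.05, DESeq2 1 and limma-voom 0). Htt changed by -1.56 in females and -1.21 in males.

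HTT-10150 against NTC called 11 genes in 2[4]6, where mice were treated once, at 2 months, and taken at 6 months (0.0664%). It called 3 in 6[4]10, with treatment at 6 months and tissue from 10 months (0.0183%). Htt changed by -0.95 in 2[4]6 (edgeR adjusted p = 2.84e-07) and by -0.55 in 6[4]10 (adjusted p = 0.16), and Lag3 by 0.73 (adjusted p = 8.69e-05) and 0.65 (adjusted p = 0.0162). In 2[4]6, all but 6 of the 153 genes raised by the repeated treatment were positive and all 111 lowered genes were negative, with 6 and 5 called. In 6[4]10, all but 11 of the 153 and all but 14 of the 111 kept their sign, with 2 and 0 called. Over all genes 47.7% and 51.9% of changes were positive. Medians of the raised genes were 0.14 and 0.11, against 0.31 under the repeated treatment. Because these genes were selected by their calls under the repeated treatment, smaller medians in other mice can come from that selection alone. The difference between the repeated and the mean of the single treatments was called for no gene (0%; edgeR, 583 at an unadjusted p under 0.05), including Htt (-0.59 ± 0.15, unadjusted p = 0.000166).

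Within the 7 HTT-10150 mice, the level of Htt was set against each of the 27 other named genes on the log2 CPM scale. Nsg1 was higher where Htt was higher (Pearson r = 0.95, exact permutation p = 0.0026, 0.0348 after Benjamini-Hochberg adjustment over 27 genes; Spearman rho = 0.89, adjusted exact p = 0.107). Fcrls was lower where Htt was higher (r = -0.91, exact permutation p = 0.002, adjusted 0.0348; rho = -0.93, adjusted exact p = 0.107). Without the 2 mice farthest from the median of Htt, r was 0.89 for Nsg1 and -0.81 for Fcrls. The other 25 relations did not pass the adjustment, among them Olfml3 (r = -0.83) and Lag3 (r = -0.74, and -0.16 without the 2 farthest mice), and Trak2, Ado and Vapb had r of -0.53, -0.22 and -0.09. The values come from 1 treatment group of 7 mice and share the scaling of each library.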

How the data were processed

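Hippocampal polyA-selected RNA was sequenced, 1 library per mouse. The authors deposited expected counts per gene, made with RSEM on GRCm38 per the submitters' processing notes; no version is given in the sources used. The deposited expected counts were whole in 100% of values and were used as they stood. Of 41135 features, 7 without a mouse Ensembl identifier, holding 6.85e-06% of counts, were left out. Names came from GENCODE vM21 (40254 identifiers matched).

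The 63 libraries of the regimen were fitted together with edgeR 4.0.16 (R 4.3.3): filterByExpr by group, TMM factors, a term per group and for sex, the quasi-likelihood test and Benjamini-Hochberg adjustment over all genes tested. CPM values use the TMM factors. Htt was also compared by exact permutation tests (scipy 1.17.1). A library counted as striatal where Adora2a and Drd1 both exceeded 5 times the regimen's median. Alternatives were DESeq2 1.42.0 (counts as above), limma-voom 3.58.1, other factors, filters and blocks, and leaving out each mouse. On simulated data with 15904 genes, the test called 68% of 1.25-fold and 96% of 2-fold changes, 50 genes each, and 14 unchanged genes. The changed genes were drawn only from those above a floor on expected counts, so these rates do not cover genes of few reads. Counts were simulated independently, without blocks or carried-along tissue.

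Named genes were Htt, the 10 raised and 10 lowered genes of smallest adjusted p and the next 4 each by size, among called genes that had the same sign in both sexes and a mean log2 CPM not below 0 (28 in all), plus up to 4 members per list. The members and the 44 gene lists were chosen with earlier results of these data known. A few members are not reported here.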

Additional observations from a re-analysis of the deposited data

Results flagged for a closer look

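In 92 groups of 7 or 8 mice (46 genes) 8 held a mouse far from the others by Dixon's criterion, where chance gives about 1 group in 20. Among NTC mice, female 3 was highest for Ptgds (317 CPM, next 142.5) and Aldh1a2 (5.02 CPM, next 3.01) and lowest for Nsg1 (239 CPM, next 262); it is also the mouse of the highest choroid plexus sum, whose part in these values was not tested. NTC male 4 was highest for Ado (53.8 CPM, next 44.04). NTC female 4 was lowest for Vapb (152 CPM, next 163), and NTC female 1 for Iyd (1.04 CPM, next 2.29). HTT-10150 male 2, which kept the most Htt, was highest of its group for Stk11ip (24.8 CPM, next 20.6) and lowest for Enpp6 (4.65 CPM, next 6.30).

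The change of Frem3 from NTC to HTT-10150 mice differed between the genotypes, with a log2 difference of -1.50 by the interaction term of the edgeR fit. NTC mice lay above the untreated mean in WT (3.44 against 1.90 CPM) and below it in zQ175 mice (0.98 against 1.48 CPM). Leaving out each of the 31 mice in turn kept the call in 30 cases, and it was lost without zQ175 HTT-10150 male 2 (edgeR adjusted p = 0.0861), without the libraries of high choroid plexus signal (0.232) and with a block of the number in the library names (0.07).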

How the results depend on the processing

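The decrease of Htt ran from 58.28% to 63.02% when each mouse was left out. The share of genes called for HTT-10150 against NTC, 1.66%, ranged from 1.06% (without HTT-10150 male 3) to 2.32% (without NTC female 3), with 1.09% without NTC female 2. Of 15904 genes RLE factors called 288, limma-voom 233 and DESeq2 325 (47.7% raised, against 58.0%), and a fit of the 2 groups alone called 0.566% (85 genes). With the striatal library kept, calls were 3.41% against NTC (540 genes), 0.871% for the same in zQ175, 0.0126% for the genotype difference, 4.26% against untreated, 1.21% against HTT-634.486 and 0.694% for NTC against untreated. No filter on low counts, with 26454 genes tested, gave 0.801% in zQ175 and 0.556% against untreated. DESeq2 gave 0.641% against HTT-634.486 and 0.00614% for the sex difference. The cause of these shifts was not tested.

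The replicate numbers of the titles did not pair the mice (correlations of deviations from -0.54 to 0.28 over 7 pairs). Numbers in the library names, whose meaning is not stated, gave 5 pairs at 0.0952 to 0.28, 4 of them over 0.1, and were not taken as a pairing. The replicate block gave 1.89% against NTC (300 genes), 2.53% against untreated and 0.0189% for the genotype difference. A block of these numbers gave 4.69% against NTC (746 genes), 3.3% in zQ175, 1.21% against HTT-634.486 and 1.1% for NTC against untreated. Under it the genotype difference called 1 gene, which was not Frem3.

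The following settings, and leaving out each mouse for the genotype difference of Frem3, were chosen after seeing the data. Without libraries of high choroid plexus signal 2.25% were called against NTC (358 genes, 207 of the 264 among them), 0 for the genotype difference, 0.258% against HTT-634.486 and 0.699% for NTC against untreated. The 2 groups alone with the striatal library gave 0.174%. Slc17a8 turned from -0.51 to 0.135 with that library, and to 0.059 with the 2 groups alone.

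Of the genes named, Htt, Lag3, Fcrls, Olfml3, Ado, Clmp, Trak2, Abca8a, Prss23, Vapb, Cx3cr1 and C1qa were called in all 27 settings. Calls were fewer for Gpr34 (11), C1qb (12), Onecut1 (12), Nptx2 (13), Aldh1a2 (16), Asns (18) and Slc17a8 (18). Depth limits Dusp27 and Cst7, which had at most 8 and 15 reads in an NTC mouse.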

Other observations

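Htt lies on chromosome 5, and within 5 Mb on either side of it 117 genes were tested, 1 was raised (Dok7) and 3 were lowered (Tbc1d14, Nsg1 and Wdr1). Within 1 Mb 27 were tested and 1 was raised. Within 10 Mb 153 were tested, 2 were raised and 4 lowered, with a median change of -0.0032. Over all genes 0.962% were raised and 0.698% lowered. Whether calls gather near Htt was not tested.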
